A study of Chlamydomonas reinhardtii with 2 samples.

Results

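The dynein, radial spoke, intraflagellar transport (IFT) and Bardet-Biedl syndrome protein (BBS) genes of the green alga Chlamydomonas reinhardtii were described in 1 RNA sequencing library of strain CC5325 and 1 of strain CC125. Members were the nuclear reference genes whose symbol in the deposited tables starts with a dynein chain, RSP, IFT or BBS stem followed by a digit. They were 79 of 17611 nuclear genes: 31 dynein genes (16 heavy chains and 15 other subunits), 17 radial spoke genes, 22 IFT genes and 9 BBS genes. The labels call both strains wild type and describe mixotrophic growth in TAP, an acetate medium, at 25 °C and in weak light (20 μmol of photons per m2 and second). They give no mating type, cell cycle stage or state of the cilia. With 1 library per strain differences between strains cannot be set against replicate error and are given without p-values, and intervals below cover counting error only, with mates of a pair taken as independent unless pairs are named. The series title names 5-glyceryl-methylcytosine, a modified DNA base, and its design implies a comparison of transcripts between CC5325 and CC125.

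Motile cilia of this alga beat because dynein motors on the outer doublet microtubules slide neighbouring doublets against each other. Outer arm dynein supplies power, inner arm dyneins shape the bend, and radial spokes carry signals from the central pair to the dyneins. Cilia are built and maintained by IFT, in which trains of IFT-B and IFT-A proteins are carried to the tip by kinesin-2 and back by a cytoplasmic dynein, with the BBSome as an adaptor that moves membrane-associated cargo out of the cilium.

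Reads per gene were very few. The deposited coverage of a gene, its mean number of reads per base, was multiplied by the gene's span and divided by the read length of 150 bases to give read equivalents. They are not counts of reads and can overstate them because spans hold introns, so intervals on them can be too narrow. Above 0 yet under 1 read equivalent were 4 members in CC5325 and 11 in CC125. Nuclear genes outside 1 ribosomal RNA gene summed to 75825 read equivalents in CC5325 and 12689 in CC125, a ratio of 5.98, whereas all aligned bases came to 5.81 Gb in CC5325 and 3.18 Gb in CC125, a ratio of 1.83. The same coverage therefore stands for a lower share of nuclear reads in CC5325, and a share ratio below is the ratio of read equivalents divided by 5.98. For a gene at 0, the expected number of reads may still be up to 3 by the usual limit for a count of 0. All 79 members lay under 1 TPM in both libraries, and the highest, RSP20, reached 0.356 TPM in CC5325 against 0.210 TPM in CC125. Low TPM was general, since a mean of at least 0.1 TPM was reached by 5 members and by 840 of 17611 nuclear genes. Nuclear genes outside the ribosomal RNA gene came to 0.196% of aligned bases in CC5325 and 0.0598% in CC125. The share of all nuclear genes under 1 TPM is not given here. None lay in the run of 36 genes with high CC5325 coverage at the left end of chromosome 1, which ends at position 275561. That run held 9.30% of the nuclear read equivalents in CC5325 and 0.129% in CC125. It is part of the ratio of 5.98, which was 5.43 without it.

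Detection was the first thing the libraries showed. Of the 79 members, 67 (84.8%) were listed above 0 in CC5325, against 53.2% of all nuclear genes in that library. In CC125, 50 members (63.3%) were listed above 0, against 20.9% of all nuclear genes. Both libraries listed 47 members above 0 (17.3% of all nuclear genes), 20 were above 0 in CC5325 and at 0 in CC125 (35.8%), and 3 were at 0 in CC5325 and above 0 in CC125 (3.51%). The 9 members at 0 in both libraries (43.3% of all nuclear genes) were DLE3, DLL2, DLL3, DLT2, DLU1, RSP7, IFT25, BBS3A and BBS4. Their spans ran between 555 bases for DLE3 and 5811 bases for RSP7.

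**Figure D1:**
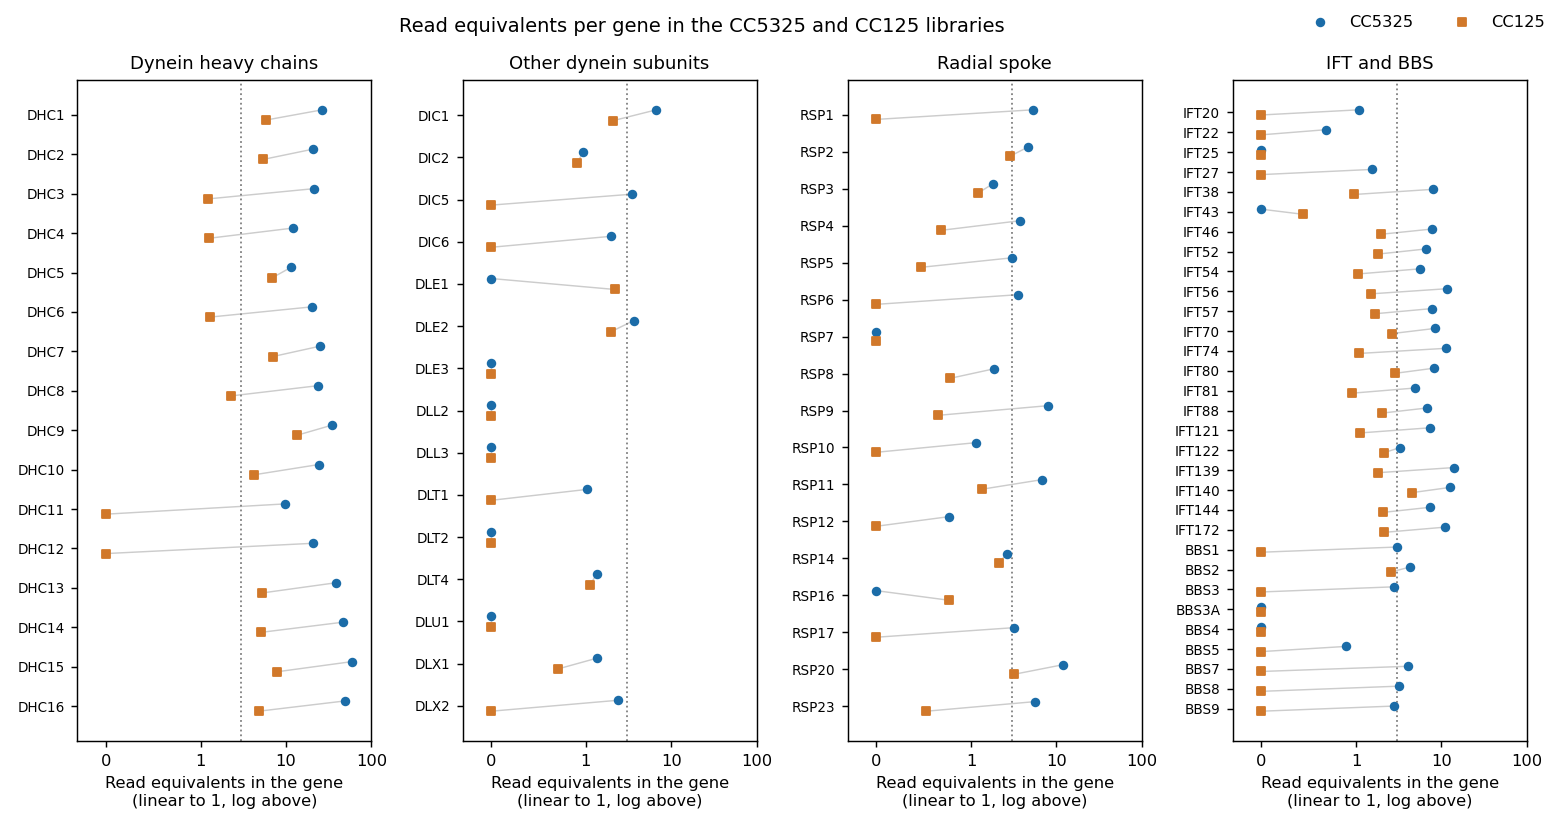
Read equivalents of every member gene in the CC5325 library (circles) and the CC125 library (squares) on an axis that is linear to 1 and logarithmic above, with a dotted line at 3 read equivalents. The CC5325 points of all 16 heavy chain genes lie right of the line, between 9.66 and 59.7, whereas 10 of 16 CC125 points do. DLE1, RSP16 and IFT43 are the genes with a CC125 point right of their CC5325 point.

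By class, heavy chains were detected most completely, with 16 of 16 above 0 in CC5325 and 14 of 16 in CC125. Other dynein subunits were above 0 in 9 of 15 cases in CC5325 and 6 of 15 in CC125. Radial spoke genes were above 0 in 15 of 17 cases in CC5325 and 11 of 17 in CC125. IFT genes stood close to the heavy chains, with 20 of 22 above 0 in CC5325 and 18 of 22 in CC125. BBS genes showed the widest gap in numbers, with 7 of 9 above 0 in CC5325 and 1 of 9, BBS2, in CC125. These counts are not scaled to depth, and of all nuclear genes 53.2% were above 0 in CC5325 and 20.9% in CC125. With CC5325 scaled to the CC125 total and at least 1 read equivalent asked for, 0 of 9 BBS genes remained in CC5325 and 1 of 9 in CC125.

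Detection was set against gene span. Nuclear genes were divided into 5 quintiles of gene span, and the share listed above 0 was 28.4% in the shortest quintile and 77.2% in the longest quintile of CC5325, against 12.7% and 30.8% in CC125. Members above 0 in CC5325 were 11 of 17 in the shortest quintile, then 8 of 12, 11 of 11 and 11 of 13, and 26 of 26 in the longest. In CC125 they were 4 of 17 in the shortest, then 9 of 12, 9 of 11 and 6 of 13, and 22 of 26 in the longest, so the order of the members' shares did not follow span throughout in either library. In every quintile of both libraries the members' share was above that of all nuclear genes of that quintile.

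**Figure D2:**
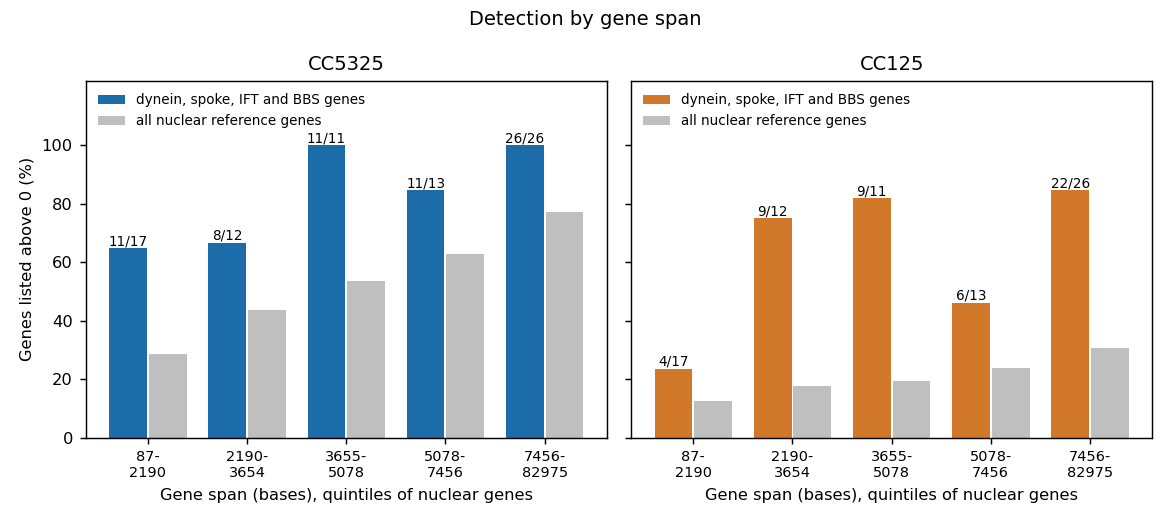
Percentage of genes listed above 0 in each quintile of gene span (in bases), members in colour and all nuclear genes in grey, for CC5325 (left) and CC125 (right). Labels give members above 0 over members in the quintile. Coloured bars stand above grey ones in all quintiles, with 26 of 26 against 77.2% in the longest quintile of CC5325 and 22 of 26 against 30.8% in that of CC125.

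The heavy chain genes span 17117 to 32397 bases, so they were set beside genes of like span. All 16 heavy chains were above 0 in CC5325, against 90.9% of the 307 nuclear genes at least as long as the shortest of them, and 14 of 16 were in CC125, against 43.6%. With the heavy chains and the chromosome 1 run left out, 290 long genes remained. Per base of span, heavy chains held 2.11 times the reads of these long genes in CC5325 (95% interval 1.91 to 2.33) and 3.44 times in CC125 (2.63 to 4.45). The top long gene held 10.4% of the long genes' reads in CC5325 and 26.2% in CC125. Coverage of 15 of 16 heavy chains in CC5325 lay above the median of the long genes, 0.0563 reads per base, while that median was 0 in CC125. The excess per base of the heavy chains over long genes was thus present in both libraries.

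A stricter limit of 3 read equivalents left 49 members in CC5325 (22.0% of all nuclear genes passed) and 12 in CC125 (3.76% passed). The 12 passed in both libraries (3.36% of all nuclear genes) and were 10 heavy chains, IFT140 and RSP20. With CC5325 reads scaled to the CC125 total and at least 1 read equivalent asked for, 34 members remained in CC5325 and 39 in CC125, beside 11.9% and 12.7% of all nuclear genes. At that matched depth CC5325 kept 16 heavy chains, 14 IFT genes, 3 radial spoke genes, 1 other dynein subunit and 0 BBS genes. CC125 kept 14 heavy chains, 15 IFT genes, 5 radial spoke genes, 4 other dynein subunits and 1 BBS gene. This rule asks for at least 5.98 read equivalents in CC5325 before scaling, so its counts differ from those listed above 0 by the limit as well as by depth.

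Pooled over all members, CC5325 had 696 read equivalents (645 to 750) and CC125 had 130.2 (109 to 155). The ratio of their shares was 0.895 with an interval of 0.741 to 1.09. Against genes of the same span quintile it was 0.680 (0.563 to 0.826; 0.521 to 0.900 by pairs of mates). The share of the 79 genes was thus not resolved between libraries against all nuclear genes and was lower in CC5325 against genes of like span. Each class gave an interval that held 1 against all nuclear genes, as follows in the order of the genes' roles. Per aligned base, the ratio was 3.17 for dynein genes, 2.41 for radial spoke genes, 2.44 for IFT genes and 4.53 for BBS genes, and nuclear reads as a whole were 3.27 times as frequent per aligned base in CC5325 as in CC125. On the TPM scale all nuclear reads together stood at 2.70 times, so that summed TPM of 1.71 in CC5325 and 0.820 in CC125 for dynein genes, a ratio of 2.08, lay under that of all nuclear reads.

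Dynein genes held 465 read equivalents in CC5325 (424 to 510) and 80.4 in CC125 (63.8 to 100.05), a share ratio of 0.968 (0.763 to 1.24). Most of this came from the heavy chains, the large subunits that carry the motor domain, with 442 in CC5325 (402 to 486) and 71.5 in CC125 (55.9 to 90.1) and a share ratio of 1.04 (0.805 to 1.35). Outside the chromosome 1 run, the ratio of reads over all nuclear genes was 4.23 in the shortest quintile of span, then 3.44, 5.46 and 6.67, and 9.16 in the longest. Set against genes of the same quintiles, the heavy chain ratio was 0.675 (0.525 to 0.880; 0.473 to 0.991 by pairs of mates), and against genes at least as long as the shortest heavy chain 0.658 (0.512 to 0.858). Both of these denominators include the heavy chains themselves and leave out the chromosome 1 run. The position of the heavy chains relative to other genes therefore depended on whether span was taken into account: the ratio was not resolved from that of nuclear genes as a whole, and was lower than that of long genes.

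**Figure D3:**
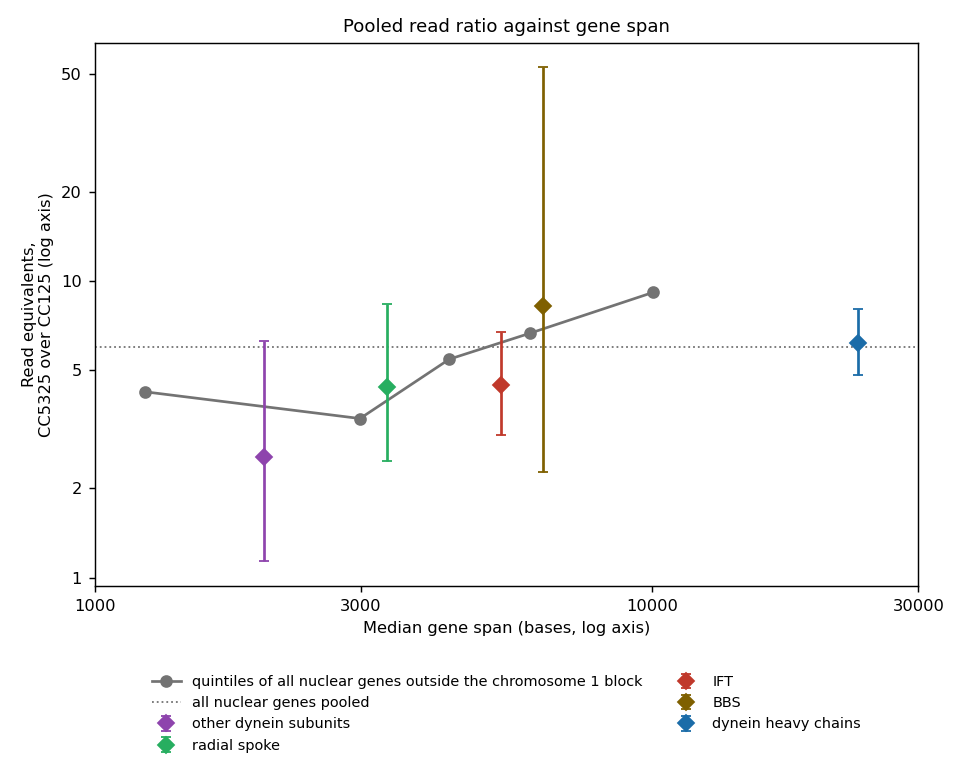
Pooled read equivalents of CC5325 over CC125 (log axis) against median gene span in bases (log axis), with diamonds for the gene classes, bars for 95% counting intervals, and grey points for quintiles of all nuclear genes outside the chromosome 1 run. The grey line runs between 4.23 in the shortest and 9.16 in the longest quintile with a low point of 3.44 in the second, the dotted line is the ratio of 5.98 of all nuclear genes, and the heavy chain point at 6.19 lies below the last grey point.

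Among the heavy chains, DHC15 of the outer arm had the highest coverage in CC5325, followed by DHC16 of the IFT motor and the outer arm chains DHC14 and DHC13. DHC15 (Cre11.g476050, chr11:3199910-3219677, plus strand, CC-4532 version 6.1 annotation), the gamma chain known from the mutant oda2, had 59.7 read equivalents in CC5325 and 7.78 in CC125. DHC14 (Cre09.g403800, chr9:804876-824563, minus strand), the beta chain of oda4, had 46.8 in CC5325 and 5.04 in CC125. DHC13 (Cre03.g145127, chr3:512261-530665, plus strand), the alpha chain of oda11, had 38.5 in CC5325 and 5.21 in CC125. The coverage of these genes, which encode the chains of 1 complex, was 0.453, 0.357 and 0.314 reads per base in CC5325, and the counting intervals of the lowest and the highest overlapped. In CC125 it was 0.0591, 0.0384 and 0.0425 reads per base. Pooled, they had 145 read equivalents in CC5325 and 18.03 in CC125, a share ratio of 1.35 (0.822 to 2.33).

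DHC16 (Cre06.g250300, chr6:184393-203817, minus strand), the heavy chain DHC1b of the dynein that returns IFT trains to the cell body, was close to the outer arm chains in CC5325. It had 48.5 read equivalents and a coverage of 0.375 in CC5325, against 4.77 read equivalents and a coverage of 0.0368 in CC125. Its share ratio was 1.70 (0.669 to 5.66), an interval that holds 1. The symbols DHC1B and DLL1 were not among those in the tables.

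The heavy chains of inner arm dynein f, the 2-headed inner arm, were lower per base in CC5325 than the outer arm chains. DHC1 (Cre12.g484250, chr12:128436-148784, plus strand), its alpha chain, had 26.5 read equivalents in CC5325 and 5.81 in CC125. DHC10 (Cre14.g624950, chr14:2558189-2582867, minus strand), its beta chain, had 24.2 in CC5325 and 4.24 in CC125. Both passed the limit of 3 read equivalents in both libraries, and their pooled share ratio was 0.845 (0.425 to 1.86).

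The 6 heavy chains of the single-headed inner arm dyneins, DHC2, DHC5, DHC6, DHC7, DHC8 and DHC9, held 134.7 read equivalents in CC5325 (113 to 159) and 36.2 in CC125 (25.3 to 50.01). Their share ratio was 0.623 (0.429 to 0.927) against nuclear genes outside the ribosomal RNA gene. The interval held 1 with pairs of mates as the unit (0.367 to 1.11), without DHC9 (0.733, 0.462 to 1.21) and with the chromosome 1 run left out of the denominator (0.686, 0.472 to 1.02). The ratio was 0.407 (0.280 to 0.604; 0.239 to 0.726 by pairs) against genes of the same span quintile, but 1.12 with the ribosomal RNA gene in the denominator, 1.32 against cytosolic ribosomal protein genes and 2.04 per aligned base. DHC9 (Cre02.g141606, chr15:1786544-1818940, minus strand), the heavy chain of dynein c, had the most CC125 reads of any member, 34.6 read equivalents in CC5325 and 13.3 in CC125, with a share ratio of 0.435 (0.226 to 0.890; 0.170 to 1.27 by pairs of mates). DHC5, the heavy chain of dynein b, had 11.4 in CC5325 and 6.90 in CC125, a share ratio of 0.276 (0.0982 to 0.841; 0.0605 to 1.52 by pairs). Coverage, which is not scaled to depth, was 0.160 in CC5325 against 0.0617 in CC125 for DHC9, and 0.0718 against 0.0436 for DHC5. TPM was 0.0628 in CC5325 against 0.0536 in CC125 for DHC9, and 0.0281 against 0.0379 for DHC5. DHC6, the heavy chain of dynein a, had 19.9 read equivalents in CC5325, 1.28 in CC125 and a share ratio of 2.61 (0.489 to 54.8), an interval that holds 1 and overlaps those of DHC5 and DHC9.

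The remaining heavy chains, DHC3, DHC4, DHC11 and DHC12, were as a group the lowest per base in both libraries. Together they had 63.5 read equivalents in CC5325 (48.8 to 81.2) and 2.48 in CC125 (0.406 to 7.97), a share ratio of 4.29 (1.28 to 26.8). The interval held 1 with pairs of mates as the unit (0.824 to 95.9) and against genes of the same span quintile (2.80, 0.833 to 17.5). DHC12 had 20.4 read equivalents in CC5325 and 0 in CC125, with an interval of the share ratio that starts at 0.843 and so holds 1. DHC11 had 9.66 in CC5325 and 0 in CC125, with an interval that starts at 0.360. DHC3 and DHC4 had 21.4 and 12.1 in CC5325 and 1.23 and 1.24 in CC125.

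**Figure D4:**
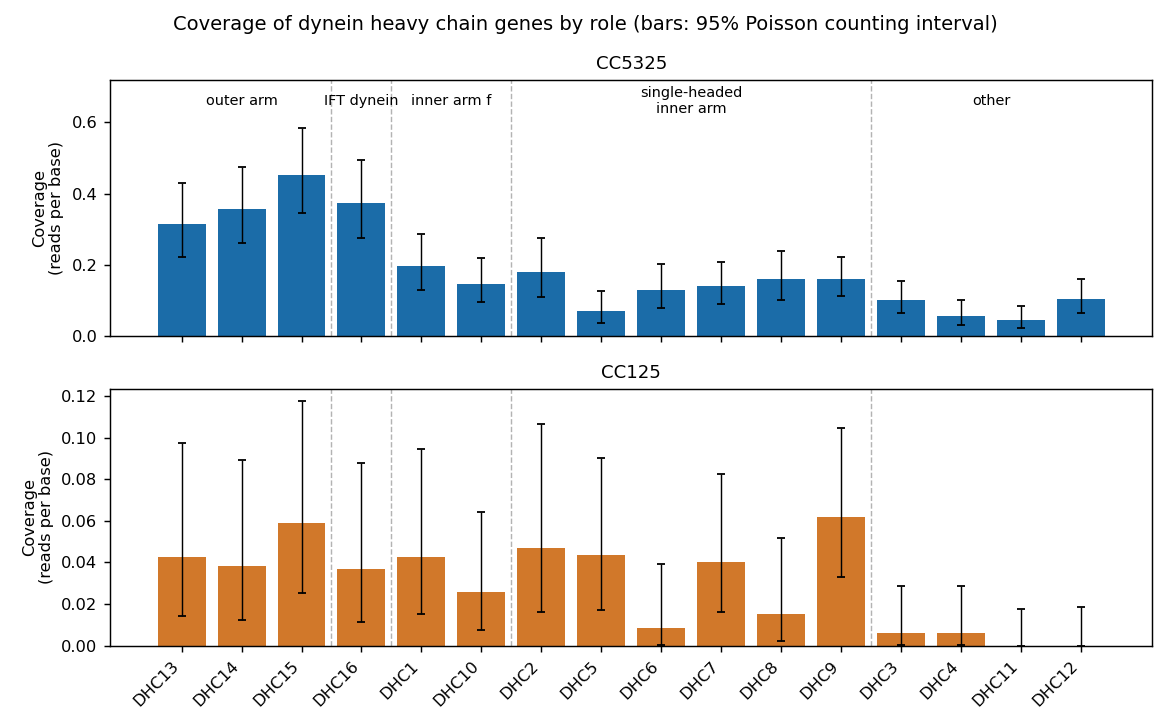
Coverage in reads per base of the 16 heavy chain genes, grouped by role, in CC5325 (top) and CC125 (bottom, on a smaller scale), with bars for 95% Poisson counting intervals. DHC13, DHC14, DHC15 and DHC16 stand at 0.314 to 0.453 in CC5325 above all other heavy chains, whereas in CC125 the single-headed inner arm gene DHC9 is highest at 0.0617.

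Within the CC5325 library outer arm heavy chains had 2.69 times the reads per base of the single-headed inner arm chains (2.11 to 3.43), and within CC125 1.25 times (0.668 to 2.25). The ratio of these ratios, which needs no denominator, was 2.16 with an approximate interval of 1.17 to 3.98, which held 1 by pairs of mates (0.908 to 5.13). Outer arm chains had 4.88 times the reads per base of DHC3, DHC4, DHC11 and DHC12 in CC5325 (3.61 to 6.66) and 15.6 times in CC125 (4.16 to 103), where the second group rests on 2.48 read equivalents. The order of the heavy chains by coverage was partly shared, with a Spearman correlation between libraries of 0.62 over the 16 genes, given as a description since both libraries share the genes' lengths and base composition.

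Intermediate and light chains were hard to see in either library. The 15 other dynein subunits had 22.9 read equivalents in CC5325 (14.5 to 34.4) and 8.95 in CC125 (4.08 to 17.0), a share ratio of 0.428 (0.190 to 1.05). DIC1 (Cre12.g536550, chr12:6276006-6280474, minus strand), an outer arm intermediate chain known from oda9, had 6.70 in CC5325 and 2.06 in CC125. DIC2 (Cre12.g506000, chr12:2621250-2625408, plus strand), the intermediate chain of oda6, had 0.971 in CC5325 and 0.909 in CC125. Per base DIC1 stood at 0.225 and DIC2 at 0.0350 in CC5325, and at 0.0690 and 0.0328 in CC125.

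Among the light chains, DLE2, a centrin and so a calcium-binding protein with roles beyond dynein, had 3.62 read equivalents in CC5325 and 1.98 in CC125. DLE1 (Cre01.g051250, chr1:7155385-7158517, minus strand), the calcium-binding outer arm light chain LC4, was at 0 in CC5325 and at 2.19 in CC125, with an interval of the share ratio up to 0.738. It was 1 of 3 members, with DHC5 and DHC9, whose interval lay below 1 (1.89% of all nuclear genes), and 0 members had one above 1 (0.897%). With at least 3 read equivalents in both libraries, the interval lay below 1 in 2 of 12 members (34.6% of 590 nuclear genes) and above 1 in 0 (5.76%). By pairs of mates 0 members had an interval that left out 1. That share over all nuclear genes is not given here, so this count is not a result about the members. DLX2, a thioredoxin-like light chain, had 2.39 in CC5325 and 0 in CC125, and its relative DLX1 had 1.36 in CC5325 and 0.702 in CC125. DIC5 had 3.51 in CC5325 and 0 in CC125. DIC6 and DLT1, of the Tctex family, were above 0 in CC5325 alone as well, at 1.96 and 1.03, and DLT4 had 1.35 in CC5325 and 1.12 in CC125. The subunits at 0 in both libraries were DLU1, the leucine-rich light chain LC1, DLE3, the docking complex protein DC3, DLL2 and DLL3 of the LC8 family and DLT2 of the Tctex family, and 3 of these 5 genes span under 1000 bases.

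Radial spoke genes had 64.2 read equivalents in CC5325 (49.4 to 81.9) and 14.6 in CC125 (8.08 to 24.2), with a share ratio of 0.737 (0.413 to 1.41) and 1.08 (0.603 to 2.05) against genes of the same span quintile. RSP20 (Cre03.g178150, chr3:4831690-4833688, plus strand), which is calmodulin, a calcium sensor that also acts outside cilia, had 12.1 in CC5325 and 3.23 in CC125. It was the highest member per base in both libraries, at 0.908 and 0.242 reads per base. Its share ratio of 0.627 (0.175 to 3.22) was not resolved from 1.

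Spoke head proteins, which face the central pair, differed in detection. RSP9 (Cre07.g330200, chr7:2610783-2613370, minus strand) had 7.90 read equivalents in CC5325 and 0.654 in CC125, and RSP4 (Cre05.g242500, chr5:155580-158937, plus strand) had 3.71 in CC5325 and 0.679 in CC125. RSP6 (Cre05.g242550, chr5:158987-163008, plus strand), which follows the related gene RSP4 after 49 bases, had 3.51 in CC5325 and 0 in CC125. RSP1 (Cre03.g201900, chr3:7988463-7994039, minus strand) had 5.35 in CC5325 and 0 in CC125, and RSP10 had 1.13 in CC5325 and 0 in CC125. Pooled, the 5 head genes had 21.6 in CC5325 and 1.33 in CC125, a share ratio of 2.71 whose interval of 0.527 to 51.4 shows how little 1.33 read equivalents can tell. The sources used here do not say how reads shared by RSP4 and RSP6 were placed.

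The 12 stalk and other spoke genes had 42.6 read equivalents in CC5325 and 13.2 in CC125, a share ratio of 0.538 (0.285 to 1.09). RSP3 (Cre06.g291700, chr6:6146373-6149220, plus strand), the protein that anchors the spoke to the doublet, had 1.81 in CC5325 and 1.19 in CC125. RSP11, which has the dimerization domain known from protein kinase A, had 6.74 in CC5325 and 1.33 in CC125. RSP2 had 4.71 in CC5325 and 2.84 in CC125, and RSP23, of the nucleoside diphosphate kinase family, had 5.64 in CC5325 and 0.529 in CC125. RSP16, a chaperone of the HSP40 family (Cre12.g511050, chr12:1982067-1985161, minus strand), was at 0 in CC5325 and at 0.768 in CC125, which is under 1 read equivalent. RSP12, a cyclophilin, and RSP17 were above 0 in CC5325 alone, at 0.765 and 3.23.

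IFT genes had 145.7 read equivalents in CC5325 (123 to 171) and 32.7 in CC125 (22.4 to 46.0). Their share ratio was 0.747 (0.508 to 1.13), and 0.588 (0.400 to 0.888; 0.341 to 1.08 by pairs of mates) against genes of the same span quintile. Median coverage of the 22 genes was 0.163 in CC5325 and 0.0317 in CC125, against medians of 0.0154 and 0 over all nuclear genes outside the ribosomal RNA gene. The Spearman correlation of coverage between libraries was 0.65 over the 22 genes, a description only.

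IFT-A proteins, which serve the return to the cell body, had 44.5 read equivalents in CC5325 and 12.03 in CC125 over 6 genes, a share ratio of 0.619 (0.322 to 1.28). IFT140 (Cre08.g362650, chr8:1103938-1114995, minus strand), of the IFT-A core, had 12.6 in CC5325 and 4.56 in CC125, a share ratio of 0.461 (0.148 to 1.77). IFT139 (Cre06.g268800, chr6:2423403-2438140, plus strand) had 14.03 in CC5325 and 1.79 in CC125, a share ratio of 1.31 (0.284 to 14.3). IFT43 (Cre06.g251200, chr6:337186-339615, plus strand), the smallest IFT-A gene here by span, was at 0 in CC5325 and at 0.444 in CC125. No IFT-A gene had an interval that left out 1.

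IFT-B1, the core of the IFT-B complex, had 59.6 read equivalents in CC5325 and 11.9 in CC125 over 10 genes, a share ratio of 0.836 (0.444 to 1.71). IFT74 (Cre01.g027950, chr1:4171892-4177061, plus strand) and IFT81 (Cre17.g723600, chr17:3451231-3456714, minus strand), partners that bind tubulin cargo, had 11.3 and 4.84 in CC5325 and 1.07 and 0.954 in CC125. IFT52 (Cre04.g219250, chr4:2047395-2051228, plus strand), known from the bald mutant bld1, had 6.61 in CC5325 and 1.80 in CC125. IFT88 (Cre07.g335750, chr7:3467892-3474350, minus strand) had 6.84 in CC5325 and 2.02 in CC125. IFT56 and IFT70 were near these, with 11.7 and 8.38 in CC5325 and 1.49 and 2.62 in CC125. The small Rab-like GTPases IFT22 and IFT27 had 0.684 and 1.54 in CC5325 and 0 in CC125, and IFT25, the partner of IFT27, was at 0 in both libraries.

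IFT-B2 genes had 41.6 read equivalents in CC5325 and 8.70 in CC125 over 6 genes, a share ratio of 0.801 (0.380 to 1.90). IFT172 (Cre17.g703900, chr17:1099089-1108862, plus strand), linked to the turnaround of trains at the tip, had 10.9 in CC5325 and 2.14 in CC125. IFT80 had 8.18 in CC5325 and 2.85 in CC125, and IFT20 (Cre02.g089950, chr2:2239125-2240632, minus strand) had 1.08 in CC5325 and 0 in CC125. Per base of span, IFT-A stood at 0.607 times IFT-B1 in CC5325 (0.402 to 0.910; 0.334 to 1.09 by pairs of mates) and at 0.820 times in CC125 (0.337 to 1.999). The ratio of these was 0.740 (0.304 to 1.80), so a difference between libraries in the balance of IFT-A and IFT-B1 was not detectable at this depth.

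BBS genes were the lowest class per base in both libraries. They had 20.9 read equivalents in CC5325 (12.9 to 32.0) and 2.53 in CC125 (0.427 to 8.05), and the share ratio of 1.38 had an interval of 0.381 to 8.79. All CC125 reads came from BBS2, which had 4.32 in CC5325 and 2.53 in CC125. BBS7 had 4.001, BBS8 3.14, BBS1 (Cre17.g741950, chr17:5923226-5930293, plus strand) 2.97, BBS9 2.79 and BBS5 0.892 in CC5325, all of them BBSome subunits at 0 in CC125. BBS3, the GTPase that recruits the BBSome to membranes, had 2.81 in CC5325 and 0 in CC125, whereas BBS4 (Cre12.g548650, chr12:8580998-8586659, minus strand), with a span of 5662 bases, was at 0 in both. Per base of span BBS genes stood at 0.319 times IFT genes in CC5325 (0.191 to 0.506) and at 0.172 times in CC125 (0.0278 to 0.596), below 1 in both.

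Over single genes, 47 members were above 0 in both libraries and could give a ratio. The share ratio was above 1 in 16 and below 1 in 31 of them, and below 1 in 72.8% of the 3053 nuclear genes of that kind. Of the 12 members with at least 3 read equivalents in both libraries, 0 had a share at least 2-fold higher in CC5325 (5.58% of 591 nuclear genes) and 3, DHC5, DHC9 and IFT140, a share at least 2-fold lower (52.6%). A count of 3 in 12 lies under that background and is not a result about these genes. On the deposited scale, as log2 of TPM plus 0.1, CC5325 over CC125, 5 members had a mean of at least 0.1 TPM. RSP9 was at least 2-fold higher in CC5325 (45.2% of 840 nuclear genes), with 0.180 TPM in CC5325 against 0.0329 TPM in CC125, while 0 were at least 2-fold lower (6.79%). The median log2 ratio of all genes that passed was 0.85, and RSP9 at 1.07 was not 2-fold above it.

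Other ciliary genes were set beside these classes from lists chosen by symbol. The 4 alpha and beta tubulin genes, whose products form the axoneme and also cytoplasmic microtubules, had 147.7 read equivalents in CC5325 and 60.3 in CC125, a share ratio of 0.410 (0.302 to 0.563), or 0.712 (0.524 to 0.977; 0.460 to 1.13 by pairs of mates) against genes of the same span quintile, but 1.34 per aligned base. The pooled value did not hold for each gene, since TUA1 stood at 1.33 and TUA2, TUB1 and TUB2 at 0.346, 0.352 and 0.330. Central pair genes (6 of 6 above 0 in CC5325 and 4 of 6 in CC125) had a share ratio of 1.42 (0.694 to 3.34), and genes of the nexin-dynein regulatory complex, which links doublets (9 of 11 in CC5325 and 6 of 11 in CC125), 1.07 (0.593 to 2.09). The 344 flagellar associated protein genes were above 0 in 273 cases in CC5325 and 139 in CC125, with a share ratio of 1.08 (0.962 to 1.22). Genes of kinesin-2 and of partners of the IFT dynein (FLA8, FLA10, KAP1 and DLI1) had 30.2 read equivalents in CC5325 and 2.41 in CC125. Their share ratio was 2.09 (0.586 to 13.9). Docking complex and adaptor genes had 29.1 in CC5325 and 1.51 in CC125, a share ratio of 3.22 (0.694 to 45.9). Tektin and ciliary kinase genes had 11.2 in CC5325 and 2.24 in CC125, a share ratio of 0.839 (0.195 to 6.58). Of the dynein assembly factors, PF22 lies in the chromosome 1 run and had 122.1 read equivalents in CC5325 and 0 in CC125, and the other 3 had 14.6 in CC5325 and 0.0931 in CC125. The share ratio of those 3 was 26.2, with an interval that starts at 0.550 and has no upper limit. The intervals of the kinesin-2, docking complex and tektin lists and of those 3 factors thus hold 1.

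**Figure D5:**
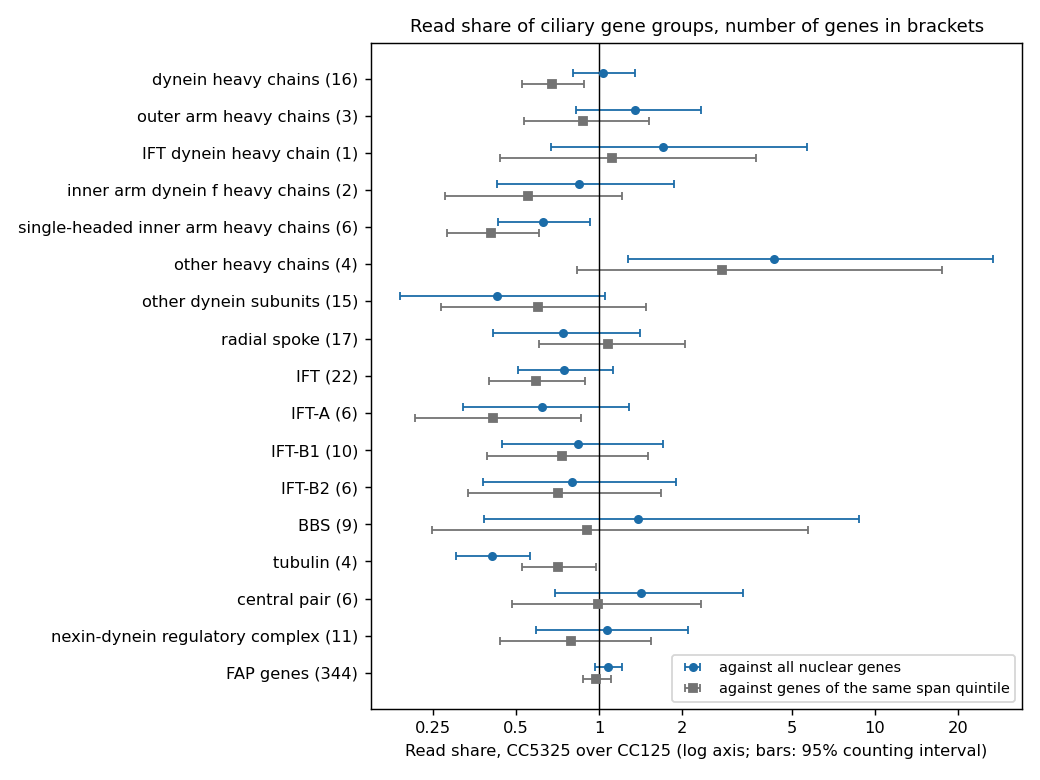
Ratio of read shares, CC5325 over CC125 (log axis), for the gene classes, their subgroups and other ciliary lists, against all nuclear genes outside the ribosomal RNA gene (circles) and against genes of the same span quintile (squares), with bars for 95% counting intervals and gene numbers in brackets. Class intervals against all nuclear genes hold 1, and the interval of the single-headed inner arm heavy chains at 0.623 lies below it but holds it by pairs of mates, without DHC9 or outside the chromosome 1 run. Pooled, the tubulin genes stand at 0.410. The squares of the heavy chains and IFT genes stand at 0.675 and 0.588, where the IFT interval holds 1 by pairs of mates (0.341 to 1.08).

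Overlaps limit single values. Of the 79 members, 47 overlap another reference gene, 37 of them on the opposite strand, and the sources used here do not say whether counting used strand. Reads of overlapping genes can therefore not be told apart. DHC5, DHC12, DLE1, RSP20 and IFT140 are among the 47, whereas DHC9, DHC13, DHC14, DHC15, DHC16 and RSP9 overlap no other reference gene.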

How the data were processed

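RNA was measured in 1 library each of CC5325 and CC125. Per the labels' protocols, Trizol RNA was depleted of ribosomal RNA and read as 150 base paired ends, while the molecule field names polyA RNA. The submitters' processing notes list StringTie 2.2.3, HISAT2 2.2.1, FastQC 0.12.1 and Trimmomatic, and the sources used here give no settings. Each gene has, per the file headers, a Coverage, an FPKM and a TPM value. Coverage as deposited is a signal of mean reads per base. FPKM as deposited counts fragments per kilobase and per 1000000 fragments. TPM as deposited was scaled within each library by the authors' run. For member genes TPM was coverage times 1 constant of the library. Gene identifiers carry the suffix of CC-4532 version 6.1, and coordinates are those of the tables.

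Read equivalents were coverage times span over 150, with 95% exact Poisson intervals, and their shares in nuclear genes outside the ribosomal RNA gene Cre08.g374100 were compared with an exact conditional binomial interval. Mates were treated as independent, and read pairs (read equivalents over 2) were an alternative, of which those beside span-matched ratios, ratios of ratios and single genes were added after seeing the data. Intervals cover counting error only, and they can be too narrow even for that, because read equivalents can overstate reads. Those on ratios of ratios use a normal approximation on the log scale. Total aligned bases came from the ratio of Coverage to FPKM. The calculation was run on simulated data, with independent Poisson counts per gene turned into coverage and read back by the same formula. That simulation held no introns, pairs of mates or overlapping genes. It therefore checks the arithmetic and cannot tell how well the intervals hold in these data. Intervals used scipy 1.17.1 under Python 3.11.15, tables pandas 2.3.3 and numpy 2.4.6, and figures matplotlib 3.10.9.

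Values were given in full for the 6 members of each class with the most read equivalents, for members at 0 in CC5325 alone, and for 18 genes chosen by name, among them DHC13, DIC1, RSP3 and IFT88; every member could be named by its detection. Values of members outside this rule were given to complete a group and were chosen after they were seen. The members, lists and subgroups were chosen with earlier results of these data known. Denominators of like span and the added assembled loci were chosen after seeing the data. Protein, promoter and miRNA sequences were not used here.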

Additional observations from a re-analysis of the deposited data

Results flagged for a closer look

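The tables also hold loci assembled from the reads of 1 library, which the comparisons above do not use. In CC5325, 16 such loci lay by at least 50% in a member gene on its strand, in 12 genes, against 0 loci in CC125. The tables hold 1146 assembled loci for CC5325 and 219 for CC125. The share of all nuclear genes that hold such a locus is not given here, so these counts are not a result about the members. The 16 loci span 393 to 1308 bases at 1.06 to 1.89 reads per base and come to 103 read equivalents, beside 285 in the rows of those 12 genes. They lie in 6 heavy chain genes (DHC3, DHC12, DHC13, DHC14, DHC15 and DHC16), in IFT38, IFT52 and IFT74, and in RSP4, RSP9 and RSP20. DHC15 holds 3 loci, the one with the highest coverage at 1.89 reads per base over 599 bases. Whether reads of these loci are also counted in the gene rows cannot be told apart from the tables. With them added to the genes and the denominator unchanged, the share ratio was 1.08 for dynein genes, 1.04 for radial spoke genes and 0.875 for IFT genes.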

How the results depend on the processing

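Detection and share ratios depended on the limit and the denominator. Without the chromosome 1 run in the denominator the share ratio was 1.07 for dynein genes and 1.14 for heavy chains. It was 0.812 for radial spoke genes, 0.822 for IFT genes and 1.52 for BBS genes, and each of these intervals held 1. With the ribosomal RNA gene in the denominator the share ratio was 1.74 for dynein genes, 1.86 for heavy chains, 1.34 for IFT genes and 1.12 for single-headed inner arm heavy chains. Per aligned base it was 3.17 for dynein genes, 3.39 for heavy chains, 1.40 for other dynein subunits, 2.41 for radial spoke genes, 2.44 for IFT genes and 2.04 for single-headed chains. Against cytosolic ribosomal protein genes it was 2.06 for dynein genes, 2.199 for heavy chains, 1.56 for radial spoke genes, 1.58 for IFT genes and 1.32 for single-headed chains. Summed TPM gave 2.08 for dynein genes, 2.85 for heavy chains, 1.31 for other subunits, 1.88 for radial spoke genes, 2.14 for IFT genes and 1.76 for single-headed chains. Span-matched denominators gave 0.671 for dynein genes and 0.675 for heavy chains. Genes at least as long as the shortest heavy chain, with the heavy chains among them, gave 0.658. The cause of these shifts was not tested.

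A limit of 3 read equivalents left 3 other dynein subunits and 3 BBS genes in CC5325, and 10 dynein, 0 other dynein, 1 radial spoke, 1 IFT and 0 BBS genes in CC125. With CC5325 scaled to the CC125 total and at least 1 read equivalent, 1 other dynein subunit, 3 radial spoke and 0 BBS genes remained in CC5325 and 5 radial spoke genes in CC125. With a pseudocount of 0.01 the TPM rule gave 3 of 5 members higher in CC5325. The median log2 ratio of all genes that passed was then 1.18, itself past 2-fold. With no filter the rule gave 3 of 79 members. It gave 0 with a pseudocount of 1, with a mean of at least 1 TPM, where no member was tested, or with the median set to 0. Shares of all nuclear genes at these settings are not given here, so the counts are not a result about the members.

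Of 253 alternatives over all values, 195 kept theirs within the limits set, 54 moved and the 4 named for single-headed chains turned round. Class ratios counted as kept lay inside the counting interval of the main value, which is wide where reads are few. BBS genes at 4.53 per aligned base counted as kept beside 1.38. IFT genes at 0.588 (0.400 to 0.888) against genes of like span also did, although that interval leaves out 1. The count of 195 is therefore not a measure of robustness. BBS genes without BBS2 gave no ratio, and coding lengths were not run. No paired analysis was possible because each strain has 1 library. At 2.53 to 80.4 read equivalents per class in CC125, depth limits each ratio, and exon lengths were not used here.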
